A study of Solanum lycopersicum with 4 samples.

Results

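Of the 13840 genes that could be compared in tomato leaves over the first 48 h at 10 °C, 174 (1.26%) were at least 2-fold above their 0 h level in all 3 later libraries, at 3, 24 and 48 h. These 174 genes, called members below, are described here. A member had reads in all 4 libraries, a mean of at least 5 CPM (reads of the gene per 1000000 reads of the library after scaling), and a log2 ratio to 0 h of at least 1 at each time, computed on CPM plus a pseudocount worth 5 reads at the mean library size. The ratios to 0 h chose the members, so they are given as a description and support nothing further. All 3 ratios of a gene share its single 0 h count, so a low count there raises all 3 together. The 4 groups were 0 h, 3 h, 24 h and 48 h at 10 °C, each with 1 RNA-seq library from the first pair of true leaves of Solanum lycopersicum, cultivar Moneymaker, with no mutation or transgene named. Seedlings stood 5 days in the dark for germination and then 16 days at 25 °C under 100 µmol of light per square metre and second, and were 3 weeks old when moved to 10 °C under 40 µmol, with 12 h days both in that growth period and at 10 °C. Both temperature and light were therefore lower in the treatment than during growth and cannot be told apart. The title of the 0 h library also names 10 °C, and the labels do not otherwise give the conditions of its harvest, the hour of any harvest or the number of plants in a library. If all plants were moved at the same hour, the 3 h leaves differed from the others in hour of day.

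Tomato is a chilling-sensitive crop of warm origin whose leaves suffer below their growth range without freezing. In plants generally, a fall in temperature is followed within hours by a wave of transcripts for regulators, and over days by transcripts for proteins that protect membranes, adjust sugars and keep photosynthesis in balance, a process called acclimation. Genes raised early and still raised on later days therefore cover both phases in time. The deposited files listed genes by identifier and paired no member with a name, so no function is given for any of them, the labelled tissue was not checked against marker genes, and no sequence of a member was used. Chromosomes were read from the identifiers. Only 4 members are given by identifier, and the others by chromosome and gene length.

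In units of 1000000 (M), there were 38.5 M unique reads in the 0 h library, 36.1 M in the 3 h, 35.7 M in the 24 h and 37.4 M in the 48 h library. With 1 library per time there is no replicate, so no test was made and no p-value exists for any value below. Intervals on folds of single genes are exact Clopper-Pearson intervals (95%) on the unadjusted scaled counts. Reads here carry no molecular identifiers and are not independent molecules, so the intervals reflect counting error alone and no difference between plants. In bulk leaf RNA, more cells of a type and more RNA per cell cannot be told apart.

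At 3 h the members had a median log2 ratio of 1.75, with quartiles of 1.35 and 2.30 and a highest value of 6.58. The same 2-fold level at 3 h was reached by 4.76% of all genes, with a median log2 ratio of 0.0024. At 24 h the members' median was 2.05, with quartiles of 1.44 and 2.70 and a highest value of 7.50, while 9.65% of all genes were 2-fold higher. At 48 h the median was 1.87, with quartiles of 1.41 and 2.40 and a highest value of 7.25, while 10.0% of all genes were 2-fold higher. The members' median was thus lowest at 3 h and highest at 24 h.

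Few members stayed far above 0 h throughout. At least 4-fold higher were 64 members after 3 h, 91 after 24 h and 73 after 48 h, beside 1.42%, 2.17% and 2.06% of all genes. Only 27 members, 0.195% of all genes compared, reached 4-fold at all 3 times, and 5 reached 8-fold at all 3. Another 48 lay between 2- and 4-fold at every time. The smallest of a member's 3 ratios was the 3 h ratio in 81 members, the 24 h ratio in 41 and the 48 h ratio in 52, so 3 h was the time that most often limited membership. All 174 members had counting intervals above 1 at each time. In 130 of them the interval also lay above 2-fold at all 3 times. These intervals use the counts that chose the members, so their place above 1 follows largely from the rule.

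**Figure D1:**
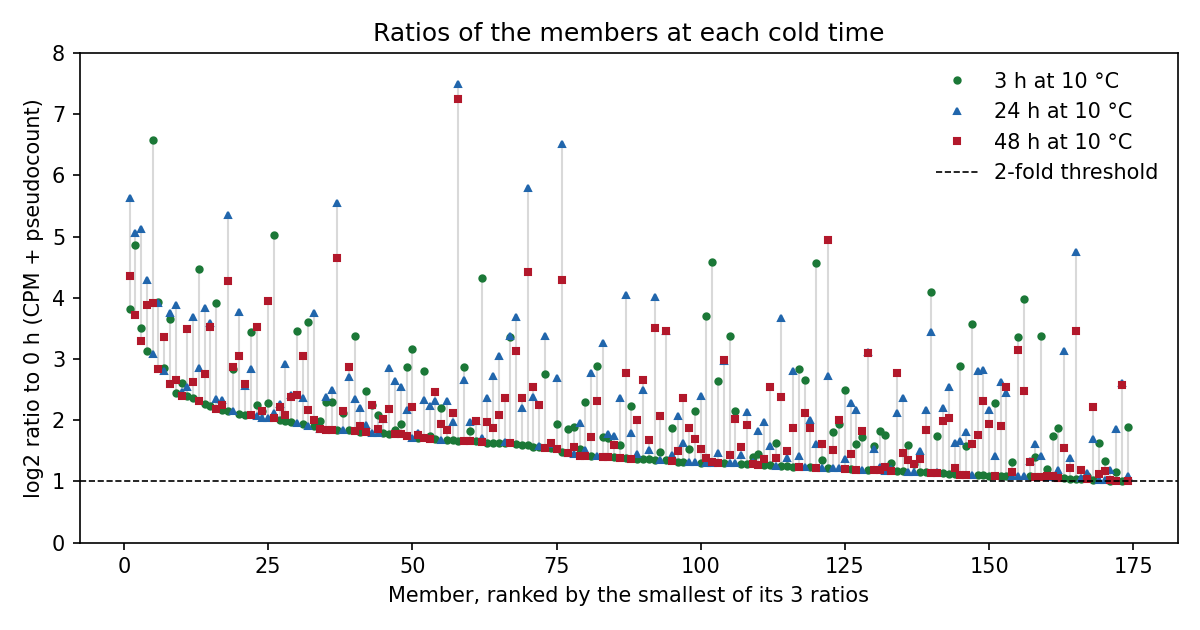
Log2 ratio to 0 h (vertical axis, with the pseudocount) of the 174 members, ranked by the smallest of their 3 ratios, with 1 point each for 3, 24 and 48 h and a grey line joining the 3. The first 5 members lie above 3 at all times, and many members further right have a single time far above the other two.

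The 5 members that were 8-fold higher at every time were scarce at 0 h. Solyc11g006910.1.1, a gene of 378 bases on chromosome 11, had the largest smallest ratio of any member. It had 20 reads at 0 h, 309 after 3 h, 1297 after 24 h and 585 after 48 h, or 0.55, 9.54, 34.1 and 14.0 CPM. These levels were 17.2-fold above 0 h after 3 h (interval 10.97 to 28.6), 61.7-fold after 24 h (39.8 to 101) and 25.3-fold after 48 h (16.3 to 41.8). Its highest level came at 24 h, and it was still higher at 48 h than at 3 h.

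A second chromosome 11 gene of 501 bases had the lowest 0 h level of all members, 0.33 CPM from 12 reads, and reached 13.5 CPM after 3 h, 15.4 after 24 h and 5.99 after 48 h. A chromosome 3 gene of 1167 bases had 0.42 CPM at 0 h, 6.14 after 3 h, 19.1 after 24 h and 5.25 after 48 h. Both were lower at 48 h than at 24 h, by 1.34 and 1.84 on the log2 scale. A chromosome 2 gene of 1563 bases, with 3.38 CPM at 0 h, had 30.7 CPM after 3 h, 68.7 after 24 h and 51.9 after 48 h. The remaining gene of the 5, on chromosome 3 and 2417 bases long, had the largest 3 h ratio of any member. It had 2.05 CPM at 0 h and 208 CPM after 3 h, a 102-fold difference (80.9 to 130), then 18.3 CPM after 24 h and 32.9 CPM after 48 h.

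At 0 h the members lay low among the genes compared, and in the cold they did not. Their median level was 5.42 CPM at 0 h, 20.2 after 3 h, 27.5 after 24 h and 24.3 after 48 h, while that of all genes compared stayed between 21.2 and 21.9 CPM. Above the median of all genes were 26 members at 0 h, 84 after 3 h, 99 after 24 h and 96 after 48 h. Among the top 10% of genes by level were 8 members at 0 h, 22 after 3 h, 25 after 24 h and 16 after 48 h. Their mean over the 4 libraries had a median of 22.01 CPM, close to the 22.5 CPM of all genes. A low 0 h level follows in part from the rule, which asks for a ratio and for a mean of 5 CPM together.

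Per length, the members' median was 4.66 CPM per kilobase at 0 h, 20.2 after 3 h, 24.1 after 24 h and 19.6 after 48 h, against 14.5, 15.04, 15.1 and 14.9 for all genes compared. At 0 h, 10 members (5.75%) had under 1 CPM, 72 (41.4%) had 1 to 5 and 65 (37.4%) had 5 to 20. Another 19 (10.9%) had 20 to 100 and 8 (4.60%) had 100 CPM or more. Of all genes compared, these classes held 0.159, 4.61, 43.2, 41.1 and 10.9%. The 10 scarcest had median log2 ratios of 3.58 after 3 h, 4.41 after 24 h and 3.54 after 48 h. A gene that scarce at 0 h needs higher levels later to pass the filter. The 8 most abundant at 0 h passed it on their 0 h level, and had medians of 1.52, 2.26 and 1.76.

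**Figure D2:**
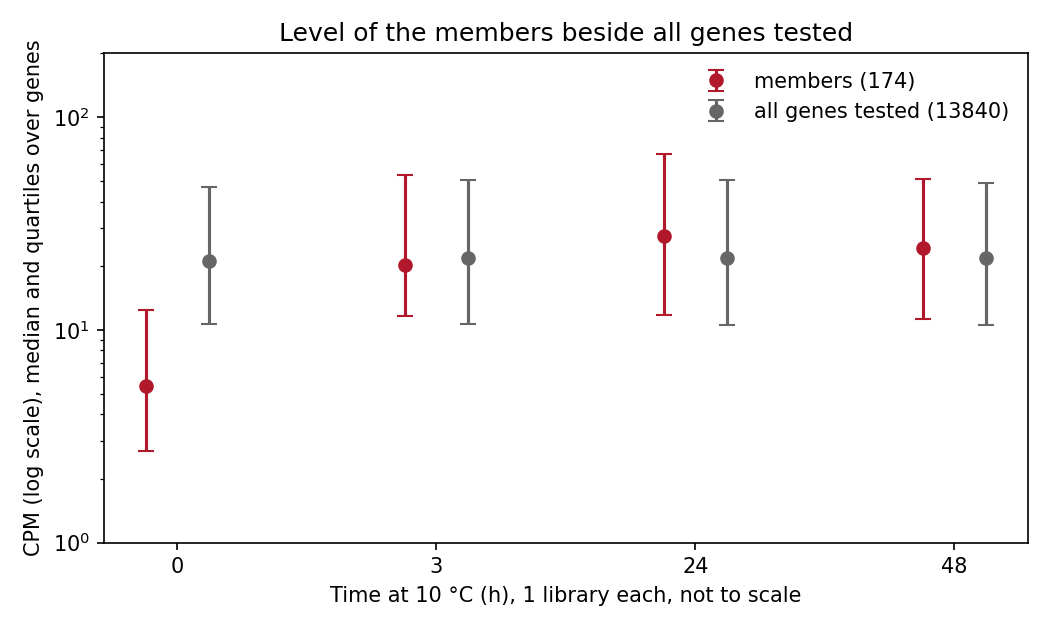
Level in CPM (log scale) of the 174 members and of all 13840 genes compared in each of the 4 libraries, with the median over genes as a point and the quartiles as bars. The members' median is 5.42 CPM at 0 h, below the lower quartile of all genes, and lies between 20.2 and 27.5 CPM in the cold libraries.

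Together the members took 0.325% of all reads at 0 h (95% interval 0.324 to 0.327), 1.11% after 3 h (1.11 to 1.12), 1.96% after 24 h (1.95 to 1.96) and 1.39% after 48 h (1.39 to 1.39). The members contributed unequally to this. The 10 with the highest mean level held 58.5% of the members' reads at 0 h, 47.5% after 3 h, 58.3% after 24 h and 54.6% after 48 h. Solyc07g055060.2.1, a gene of 3508 bases on chromosome 7, alone held 11.6% at 0 h, 6.97% after 3 h, 15.3% after 24 h and 10.9% after 48 h.

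Solyc07g055060.2.1 had the highest mean CPM of the members. Its level was 402 CPM at 0 h, 865 after 3 h, 2806 after 24 h and 1354 after 48 h, from 14538, 28035, 106624 and 56500 reads. It was 2.15-fold above 0 h after 3 h (2.11 to 2.19), 6.97-fold after 24 h (6.85 to 7.10) and 3.37-fold after 48 h (3.31 to 3.43). Against 3 h it was 3.24-fold higher at 24 h. Per length it was exceeded by 2 other members at 24 h, and by more than 2 in each of the other libraries. A chromosome 1 gene of 707 bases had 337 CPM per kilobase at 0 h, 1154 after 3 h, 2422 after 24 h and 1533 after 48 h, the highest of the members in every library. A chromosome 2 gene of 1743 bases followed it in every library, with 199, 440, 895 and 716 CPM per kilobase. All 3 of these abundant genes were highest at 24 h.

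The members differed among themselves in their course from 3 h on. The ratios between cold libraries hold no 0 h count, but the same cold counts chose the members, so they too are a description. At 24 h, 43 members (24.7%) exceeded their 3 h level 2-fold or more, as did 8.24% of all genes compared. Another 23 (13.2%) were at least 2-fold lower, where 9.45% of all genes were. The other 108 (62.1%) lay within 2-fold of their 3 h level, where 82.3% of all genes did. Members had a median log2 ratio of 0.16 for 24 h against 3 h, and all genes -0.0010.

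From 24 to 48 h, a gain of 2-fold or more was seen in 5 members (2.87%) and in 1.12% of all genes, and a loss of that size in 23 members (13.2%) and in 1.47% of all genes. The members' median log2 ratio of 48 h to 24 h was -0.11, and that of all genes 0.0015. Against 3 h, 28 members were 2-fold higher at 48 h (background 8.68%) and 30 were 2-fold lower (background 10.3%), or 16.1% and 17.2% of the members. From 24 to 48 h, 83.9% of members and 97.4% of all genes stayed within 2-fold. Over both steps, from 3 to 24 h and from 24 to 48 h, 99 members stayed within 2-fold each time. For courses over both steps, the share of all genes was not computed. In 26 members a level 2-fold higher at 24 h was then held within 2-fold at 48 h, and in 16 it was 2-fold lower again at 48 h. In 21 a level 2-fold lower at 24 h was then held within 2-fold. Another 7 were level and then 2-fold lower, 2 were level and then higher, 2 were lower and then higher, and 1 was higher at both steps.

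The highest of the 3 cold levels came at 3 h in 60 members (34.5%), at 24 h in 79 (45.4%) and at 48 h in 35 (20.1%). Over all genes compared the shares were 43.3% for 3 h, 26.3% for 24 h and 30.4% for 48 h. In 135 of the 174 members the highest library stood clear of the second by its counting interval. In the other 39 the order of the top 2 libraries was not resolved at this depth. The interval uses the same counts that picked the highest library, which favours standing clear. The share of all genes that stood clear was not computed.

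**Figure D3:**
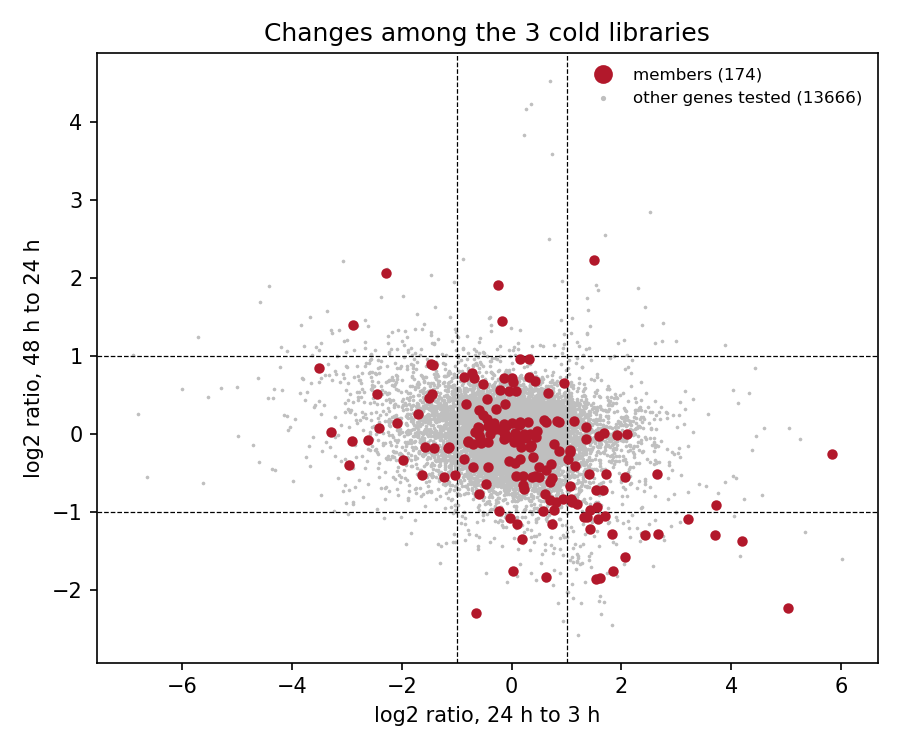
Log2 ratio of 48 h to 24 h (vertical axis) against log2 ratio of 24 h to 3 h (horizontal axis) for the 174 members and the 13666 other genes compared, with dashed lines at 2-fold. The 43 members right of the right-hand line include 16 below the lower line, which were higher at 24 h than at 3 h and lower again at 48 h.

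The 43 members that were 2-fold higher at 24 h than at 3 h had median levels of 6.005 CPM at 0 h, 17.4 after 3 h, 68.7 after 24 h and 36.0 after 48 h. Their median log2 ratios to 0 h were 1.36, 3.12 and 2.62. The 3 h step was thus the smaller part, which follows in part from how these 43 were picked. An extreme case was a chromosome 3 gene of 837 bases with 16 reads at 0 h, 55 after 3 h, 3969 after 24 h and 3666 after 48 h. It was 3.83-fold above 0 h at 3 h (2.17 to 7.17), and 61.5-fold higher at 24 h than at 3 h (47.2 to 81.8). A chromosome 8 gene of 1225 bases had 1.72 CPM at 0 h, 5.03 after 3 h, 169 after 24 h and 36.0 after 48 h, and so combined a level 33.7-fold higher at 24 h than at 3 h with a lower one at 48 h. A chromosome 12 gene of 1095 bases had a course of the same shape, with 4.95 CPM at 0 h, 15.2 after 3 h, 283 after 24 h and 109 after 48 h.

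Only 1 member was 2-fold higher at each step. This chromosome 2 gene of 918 bases had 14 reads at 0 h, 35 after 3 h, 126 after 24 h and 668 after 48 h, or 0.39, 1.08, 3.32 and 16.0 CPM. It was 4.83-fold higher at 48 h than at 24 h (3.99 to 5.89). Its 3 h ratio rests on few reads, with a fold of 2.79 and an interval of 1.46 to 5.61 that holds values under 2-fold.

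The 23 members that were 2-fold lower at 24 h than at 3 h had median levels of 3.51 CPM at 0 h, 37.5 after 3 h, 13.1 after 24 h and 12.3 after 48 h. Their median log2 ratio to 0 h was 3.46 after 3 h, 1.47 after 24 h and 1.83 after 48 h. The largest declines by 48 h were in Solyc10g081570.1.1, a gene of 1206 bases on chromosome 10, and Solyc08g081550.2.1, a gene of 1904 bases on chromosome 8. Both were picked for this fall after their values were seen.

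Solyc10g081570.1.1 had 753 reads at 0 h, 16200 after 3 h, 2433 after 24 h and 2034 after 48 h, or 20.8, 500.0, 64.0 and 48.7 CPM. At 3 h it was 24.0-fold above 0 h (22.3 to 25.9), and at 48 h it was still 2.34-fold above it (2.15 to 2.55). Its 48 h level was 10.3-fold lower than its 3 h level (9.79 to 10.7). Solyc08g081550.2.1 was much scarcer, with 23 reads at 0 h, 596 after 3 h, 67 after 24 h and 75 after 48 h, or 0.64, 18.4, 1.76 and 1.80 CPM. It was 28.9-fold above 0 h at 3 h (19.1 to 46.0). At 24 h its fold of 2.77 had an interval of 1.70 to 4.66 and at 48 h its fold of 2.82 one of 1.75 to 4.72, so both intervals held 2-fold. With a pseudocount of about 25 reads its log2 ratios were 0.89 at 24 h and 0.91 at 48 h, below the threshold, and it was no longer a member. Reads covered 23.8% of this gene at 0 h, 54.2% after 3 h, 33.9% after 24 h and 43.3% after 48 h.

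**Figure D4:**
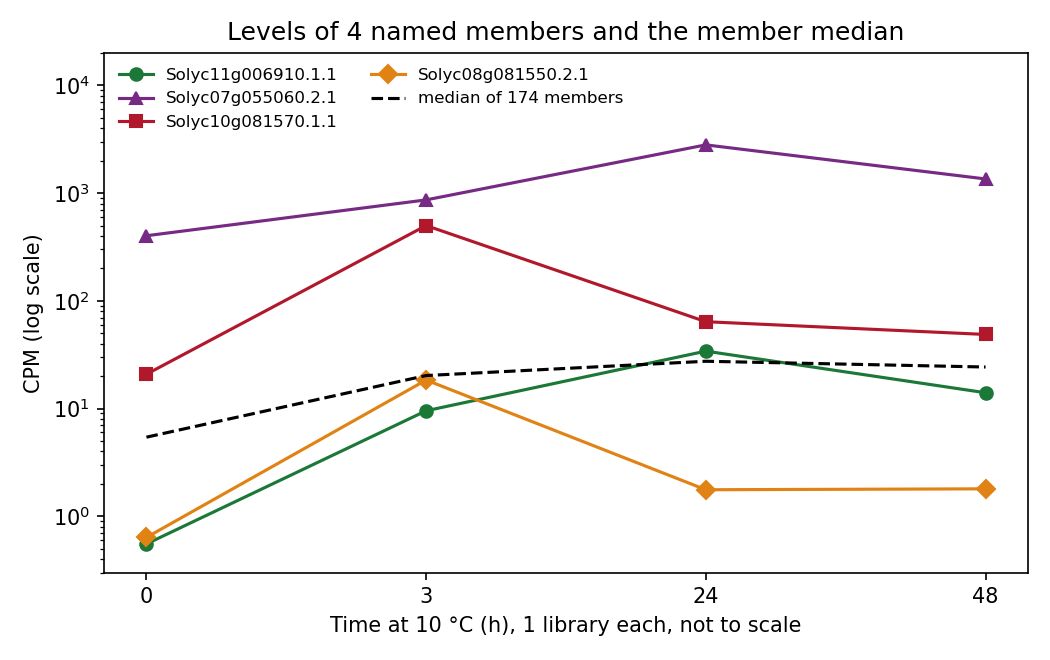
CPM (log scale) in each of the 4 libraries of the 4 members given by identifier and, as a dashed line, the median of the 174 members. Solyc11g006910.1.1 and Solyc07g055060.2.1 are highest at 24 h, at 34.1 and 2806 CPM, and Solyc10g081570.1.1 and Solyc08g081550.2.1 at 3 h, at 500.0 and 18.4 CPM.

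In 2 members the 24 h level was at least 2-fold below both the 3 h and the 48 h level. A chromosome 10 gene of 1602 bases had 3.51 CPM at 0 h, 37.5 after 3 h, 7.60 after 24 h and 32.2 after 48 h. At 24 h it was 2.16-fold above 0 h (1.75 to 2.69), and at 48 h 4.23-fold above its 24 h level (3.72 to 4.82). A chromosome 7 gene of 1098 bases had 0.77 CPM at 0 h, 14.2 after 3 h, 1.79 after 24 h and 4.94 after 48 h. Its 24 h fold over 0 h was 2.31, with an interval of 1.47 to 3.73 that holds values under 2-fold. At 48 h it was still 2.88-fold lower than at 3 h (2.43 to 3.41). Of all members, the largest drop between 24 and 48 h was in a chromosome 2 gene of 660 bases, which had 4.23 CPM at 0 h, 74.3 after 3 h, 47.3 after 24 h and 9.51 after 48 h.

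A level course was the most frequent kind among the members, but not a mark of them. By the span of their 3 cold levels, members were level less often than all genes compared. The highest and lowest of the 3 cold levels lay within 2-fold of each other in 87 of the 174 members and within 1.5-fold in 50 (28.7%), beside 76.3% and 50.7% of all genes compared. They differed by at least 4-fold in 26 members (14.9%), beside 5.55% of all genes. The smallest span was that of a chromosome 9 gene of 941 bases with 5.48 CPM at 0 h, 16.2 after 3 h, 16.9 after 24 h and 17.2 after 48 h. A chromosome 1 gene of 498 bases had 14.1 CPM at 0 h, 46.2 after 3 h, 49.1 after 24 h and 47.9 after 48 h. In both genes the intervals of the later ratios, 24 h to 3 h and 48 h to 24 h, held 1.

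The boundary of the set is not sharp. Just inside were a chromosome 3 gene of 554 bases with a smallest log2 ratio of 1.0001 at 48 h, a chromosome 10 gene of 828 bases with 1.0020 at 3 h, and 2 chromosome 5 genes of 2187 and 1743 bases with 1.0069 at 48 h and 1.0119 at 3 h. Just outside were 2 chromosome 8 genes of 2725 and 3047 bases with 0.9966 at 3 h and 0.9946 at 48 h, a chromosome 3 gene of 609 bases with 0.9963 at 3 h, and a chromosome 6 gene of 1243 bases with 0.9811 at 3 h. The gene of 609 bases had later log2 ratios of 4.57 and 4.83, larger than those of most members. All 8 had counting intervals at the limiting time that held 2-fold. Short of membership by a single time were 814 genes at 3 h, of which 84 were at least 1.5-fold higher there and 364 lay below 0 h. Another 34 genes fell short at 24 h alone and 50 at 48 h alone, of which 21 and 30 were at least 1.5-fold higher at that time.

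Features that the rule did not use directly were compared without a test. The members were from 279 to 7405 bases long, with a median of 1260 (quartiles 893 and 1741), against 1487 (1022 and 2106) for all genes compared. For comparison, 331 genes that reached the 2-fold level at 3 h and lay within 2-fold of 0 h, up or down, at 24 and 48 h are called higher at 3 h alone. Another 803 that reached it at 24 and 48 h and lay within 2-fold of 0 h at 3 h are called higher at 24 and 48 h. These 2 sets had median lengths of 1527 bases for the first and 1441 for the second. Members 2-fold higher, within 2-fold and 2-fold lower at 24 h than at 3 h had median lengths of 1173, 1284 and 1356 bases. The percent of a gene covered by reads had a median of 90.6 for members at 0 h, 96.5 after 3 h, 97.5 after 24 h and 97.3 after 48 h, against 96.99, 96.9, 97.3 and 97.4 for all genes. At least 90% covered were 91 members at 0 h, 137 after 3 h, 143 after 24 h and 144 after 48 h. These were 52.3, 78.7, 82.2 and 82.8% of the members, beside 82.9, 82.5, 84.0 and 84.4% of all genes. Coverage thus moved with the level of the members, and its part in the ratios was not tested.

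Against the same 2 sets of genes, the members started lower. Their median 0 h level of 5.42 CPM compares with 13.2 CPM for the genes higher at 3 h alone and 11.2 CPM for those higher at 24 and 48 h, and their 3 h median of 20.2 CPM with 44.9 and 11.3 CPM. At the time when each set was high, the members' median log2 ratio of 1.75 at 3 h compares with 1.49 for the genes higher at 3 h alone. At 24 and 48 h the members' medians of 2.05 and 1.87 compare with 1.504 and 1.54 for the genes higher at these 2 times. A level at least 2-fold lower at 48 h than at 24 h was seen in 13.2% of members, 0.906% of the genes higher at 3 h alone and 2.37% of those higher at 24 and 48 h. The filter on the mean level also lets a gene that is high at more times pass from a lower 0 h level. All 3 sets are defined by the same ratios, which bounds their values at each time, and with 1 library per time none of these differences was tested.

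The members were spread over all 12 chromosomes. Chromosome 3 held the most, 23 members or 1.6% of its genes compared (95% interval 1.02 to 2.39), followed by chromosome 2 with 21 and chromosomes 1 and 8 with 18 each. By share, chromosome 8 was highest with 1.76% (1.05 to 2.77) and chromosome 12 lowest with 0.719% (0.264 to 1.56), from 6 members. Every chromosome's interval held the 1.26% of all genes. These intervals treat genes as independent of each other, and a difference between chromosomes was not tested. A single member carried an identifier with no assigned chromosome.

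**Figure D5:**
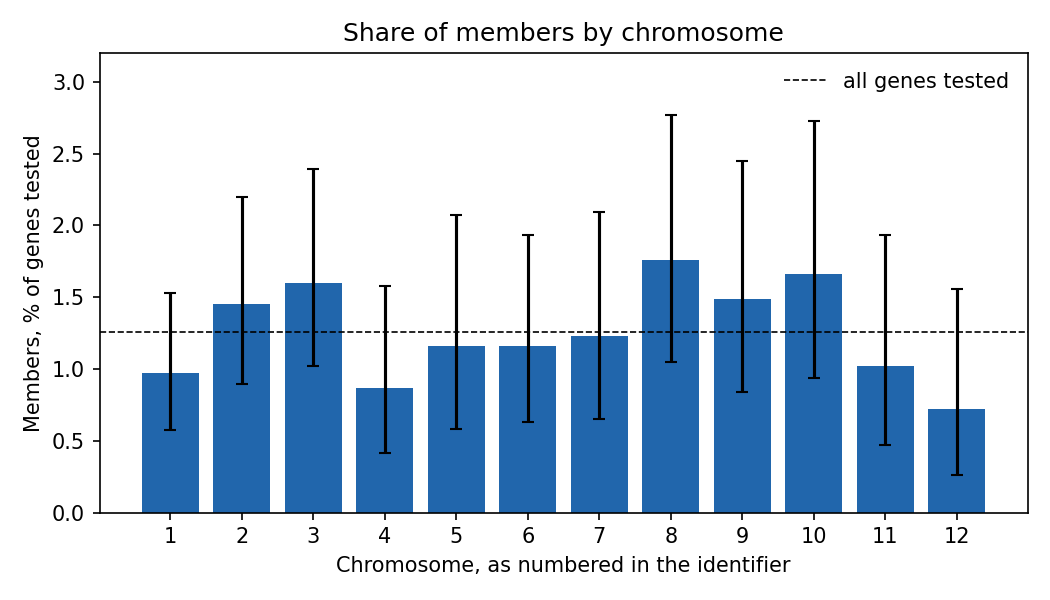
Members as a percent of the genes compared on each of the 12 chromosomes, with exact 95% binomial intervals as error bars and the 1.26% of all genes as a dashed line. Chromosome 8 is highest at 1.76% and chromosome 12 lowest at 0.719%, and all intervals include the line.

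In the order of identifiers listed in any file, a member was the immediate neighbour of 9 of the 174 members (5.17%) and of 177 of the 13666 other genes (1.3%). Within 5 genes on either side the shares were 8.62% and 6.52%, and within 10 genes 13.2% and 12.5%. The 9 neighbouring members formed 1 run of 3 genes on chromosome 1 and pairs on chromosomes 5, 8 and 9. Whether the neighbours are related in sequence is not known from the files. Reads shared between similar or overlapping neighbours could tie their counts together, and how strand was treated is not given in the sources used here.

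Courses within these runs were only partly alike. The chromosome 1 run held genes of 1633, 467 and 613 bases. The first had 24.5 CPM at 0 h, 181 after 3 h, 155 after 24 h and 77.9 after 48 h, and the third 0.72, 10.6, 11.4 and 5.03 CPM. The middle gene had 0.77, 3.12, 42.7 and 22.7 CPM, and was 3.72 higher on the log2 scale at 24 h than at 3 h, where its neighbours differed by -0.22 and 0.10. The chromosome 5 pair, of 1736 and 909 bases, kept close together, with log2 ratios to 0 h of 2.20 and 2.08 after 3 h, 1.68 and 1.79 after 24 h and 1.93 and 1.85 after 48 h. The chromosome 8 pair had 1.98 and 1.76, 1.86 and 1.17, and 1.86 and 1.24. The chromosome 9 pair differed in course, with 1.10 and 1.87 after 3 h, 2.82 and 1.43 after 24 h and 2.32 and 1.33 after 48 h.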

How the data were processed

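The deposited files gave, per the file headers, unique read counts, length, percent covered and RPKM for each gene. The deposited counts summed to each header's total, and the authors' RPKM followed from count, length and total. For aligner, build and annotation, the sources used here give nothing. Libraries were scaled with edgeR 4.0.16 TMM factors (R 4.3.3) of 0.94 (0 h), 0.90 (3 h), 1.06 (24 h) and 1.12 (48 h), fitted over 26219 genes found in at least 1 file. All 4 files held 22488 of them, and 13840 averaged 5 CPM or more (about 185 reads per library). No more than scaling was done with edgeR, since 1 library per time allows no test, with DESeq2 1.42.0 size factors as an alternative. Ratios were taken on log2(CPM + pseudocount), with the added value worth about 5 reads at the mean library size, rounded in CPM, which understates changes of low genes. The RPKM values were used only for this check, and the deposited percent of coverage as a description. The computation was tested on simulated data.

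None of the 41476 genes of the RefSeq table (SLM_r2.1) carried such an identifier. Leftover text in the files named 73 genes, 47 of them compared and 0 of them members. The function lists and promoter motifs were therefore not used, and the fallback rule gave the member with the largest smallest ratio and the one with the highest mean CPM. Members and lists were chosen with earlier results of these data known. Alternatives were other scalings, pseudocounts, filters and thresholds.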

Additional observations from a re-analysis of the deposited data

Results flagged for a closer look

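Genes with no read at 0 h were left out of the comparison, and 24 of these exceeded 3 reads (as many as a count of 0 still allows) in each of the 3 cold libraries. They drew attention as a signal outside the genes compared, above the level in the 0 h library. Their highest count was 318 reads, at 48 h, in a chromosome 10 gene of 267 bases with 14 reads at 3 h and 66 at 24 h. The highest mean over the 4 libraries was 2.45 CPM, so none would have passed the minimum of 5 CPM. Whether they would be above 0 h in other plants was not tested.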

How the results depend on the processing

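No paired analysis was possible because there is a single library per time, and likewise no replicate could be left out. Function lists and promoter motifs, with their alternatives, were not run. DESeq2 size factors gave 177 members, among them all 174, and plain totals 207, of which 167 were among the 174. Under plain totals the median log2 ratio over all genes shifted to 0.205 at 24 h and 0.257 at 48 h. Pseudocounts of about 0.5 and 25 reads gave 178 and 154 members. An unrounded pseudocount of 5 reads, added after seeing the data, gave 173. Taking absent genes as 0 left 174. Without the filter there were 297 members and at 20 CPM 94, from more and fewer genes compared by construction. Thresholds of 4-fold and 1.5-fold gave 27 and 407 from the same genes. Median log2 ratios at 3, 24 and 48 h were 2.61, 2.84 and 2.83 at 4-fold and 1.25, 1.47 and 1.37 at 1.5-fold, and the 24 h median was 2.35 at 20 CPM.

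Members higher and lower at 24 than at 3 h numbered 66 and 40 without the filter, 9 and 4 at 4-fold and 93 and 51 at 1.5-fold, and 12 were lower at 20 CPM. Members higher at 48 than at 24 h numbered 8 with plain totals, 2 with 25 reads, 15 without the filter, 1 at 20 CPM, 2 at 4-fold and 12 at 1.5-fold, and those lower 9 at 4-fold and 35 at 1.5-fold. This count of 5 members is small, and the cause of its moves under scaling and pseudocount was not tested.

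The members' share of reads follows from which genes are members. At 0, 3, 24 and 48 h it was 0.339, 1.15, 1.995 and 1.42% with DESeq2 size factors, 0.442, 1.55, 2.23 and 1.65% with plain totals, 0.328, 1.12, 1.96 and 1.40% with 0.5 reads and 0.318, 1.09, 1.92 and 1.36% with 25 reads. It was 0.331, 1.14, 1.99 and 1.42% without the filter, 0.303, 1.03, 1.84 and 1.28% at 20 CPM, 0.0089, 0.0997, 0.109 and 0.0790% at 4-fold and 0.902, 2.41, 3.73 and 2.88% at 1.5-fold. The 4 members given by identifier had 60 alternative ratios, under other scalings and pseudocounts. Of these, 51 moved by less than their counting error, 9 moved by more and 0 changed sign. For the pseudocounts this tests little, since a pseudocount cannot turn a sign. With 25 reads, Solyc08g081550.2.1 lost membership, at 0.89 after 24 h and 0.91 after 48 h. At 185 reads, the mean per library at the filter, equal counts allow folds of 0.811 to 1.23, and this depth limits the scarcest members most. Members with fewer reads at 0 h have wider intervals. The chromosome 2 gene with 14 reads at 0 h had 1.46 to 5.61 for its 3 h fold.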

Other observations

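Among the 24 genes without a read at 0 h, 1 carried leftover text in the deposited 3 h file that names an ABA 8'-hydroxylase of Solanum tuberosum, an enzyme that breaks down the hormone abscisic acid. This chromosome 8 gene of 1462 bases had 0 reads at 0 h, 16 after 3 h, 9 after 24 h and 107 after 48 h, or up to 2.56 CPM. A second gene with such text, of 1672 bases and also on chromosome 8, had 132 reads at 0 h, 3460 after 3 h, 122 after 24 h and 207 after 48 h, with log2 ratios of 4.82, -0.18 and 0.43, and so was no member. Both were picked after their values were seen.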
